A study of Mus musculus with 4 samples.

Results

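Collagens are the main structural proteins of the extracellular matrix, and the genes described here are those whose symbol names a collagen chain. Members were chosen by symbol alone, of the form Col, digits, a, digits, which gave 44 of the 19296 genes with a value. The arrays, 1 per mouse, were made with ureter RNA of 4 males of a 129Sv/C57BL6 mix. Of these, 2 were miR-143/145-/- mice aged 2.5 months with hydronephrosis, in which held-back urine widens the kidney, and 2 were miR-143/145+/+ mice aged 4.5 months with normal kidneys. The knockout removes a microRNA cluster, miR-143/145, that smooth muscle expresses strongly. Genotype, age and kidney state changed together, so their shares in any difference below cannot be told apart. The labels call the mice biological replicates, and the 2 mice per genotype limit the precision of every value.

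Each collagen molecule is a triple helix of 3 chains, which can be alike or come from different genes of the same type. Fibril-forming collagens build the ropes of the stroma, fibril-associated collagens coat their surface, and network collagens make sheets such as the basement membrane under epithelium and around each smooth muscle cell. In a tube that must stretch and contract, such as the ureter, the fibrils carry tension and the basement membranes tie cells to them.

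All values are log2 expression values of 1 probe set per gene. A level of 6.58, the 95th percentile of 1024 olfactory receptor genes, served as background, and all 44 members had a mean above it in at least 1 genotype, 40 of them on all 4 arrays. The deleted genes read below background in knockout, with Mir145a at 4.60 and 5.02 in knockout and 8.28 and 8.42 in wild type, and Mir143 at 6.48 and 6.53 in knockout and 7.64 and 7.85 in wild type. The marker lists of the ureter wall were well above background, with mean values of 11.95 and 11.78 in knockout and 11.74 and 11.63 in wild type for 8 smooth muscle genes, and of 12.14 and 12.51 in knockout and 11.59 and 11.83 in wild type for 8 urothelial genes. Kidney tubule markers stood apart on average in knockout replicate 1, where 7 genes averaged 8.19, against 6.63 in knockout replicate 2 and 6.543 and 7.002 in wild type. The genes of this list did not all move together. In knockout replicate 1 Aqp2 read 7.53, against 7.65 and 7.95 in wild type, and Slc12a1 read 5.71, against 5.37 and 5.68. Slc34a1 read 10.62 there, but also 8.65 in wild type replicate 2 against 7.33 in wild type replicate 1. The lower quartile of all probe sets was 6.26 and 6.27 in knockout and 6.36 and 6.45 in wild type, so dim genes as a whole read lower on the knockout arrays.

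Collagen chains moved in both directions. Both chains of collagen I, the fibril-associated collagens XII and XIV and the third chain of collagen VI rose in knockout ureter, and the fifth chain of collagen VI fell. Thus 5 of 44 members rose and 1 fell by limma at an adjusted p under 0.05. Over all genes tested, 2.38% passed, 1.9% as higher and 0.477% as lower, whereas 11.4% of the members passed as higher and 2.27%, a single gene, as lower. Over the 14227 genes above background in at least 1 genotype, as all members were, 2.5% passed as higher and 0.583% as lower. The other 38 members did not pass. Most of these read somewhat lower in knockout. The median difference over all 44 members was -0.29 on the log2 scale, against -0.02 over all genes and 0.03 over those above background. For 28 members both knockout arrays lay below both wild type arrays and for 11 both lay above. Over all genes these orders were met by 32% and 28%. Before adjustment, at p under 0.05, 7 members were higher and 20 lower, and over all genes 12.7% were higher and 13.8% lower. With the arrays centred on their medians, 4 members passed as higher and 3 as lower, while the split over all genes was 309 higher and 317 lower in place of 367 and 92. With either wild type mouse left out, 0 of 19296 genes passed in limma, the members included (before adjustment, at p under 0.05, 5 members were higher and 22 lower without wild type replicate 1, and 7 and 7 without wild type replicate 2).

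**Figure D1:**
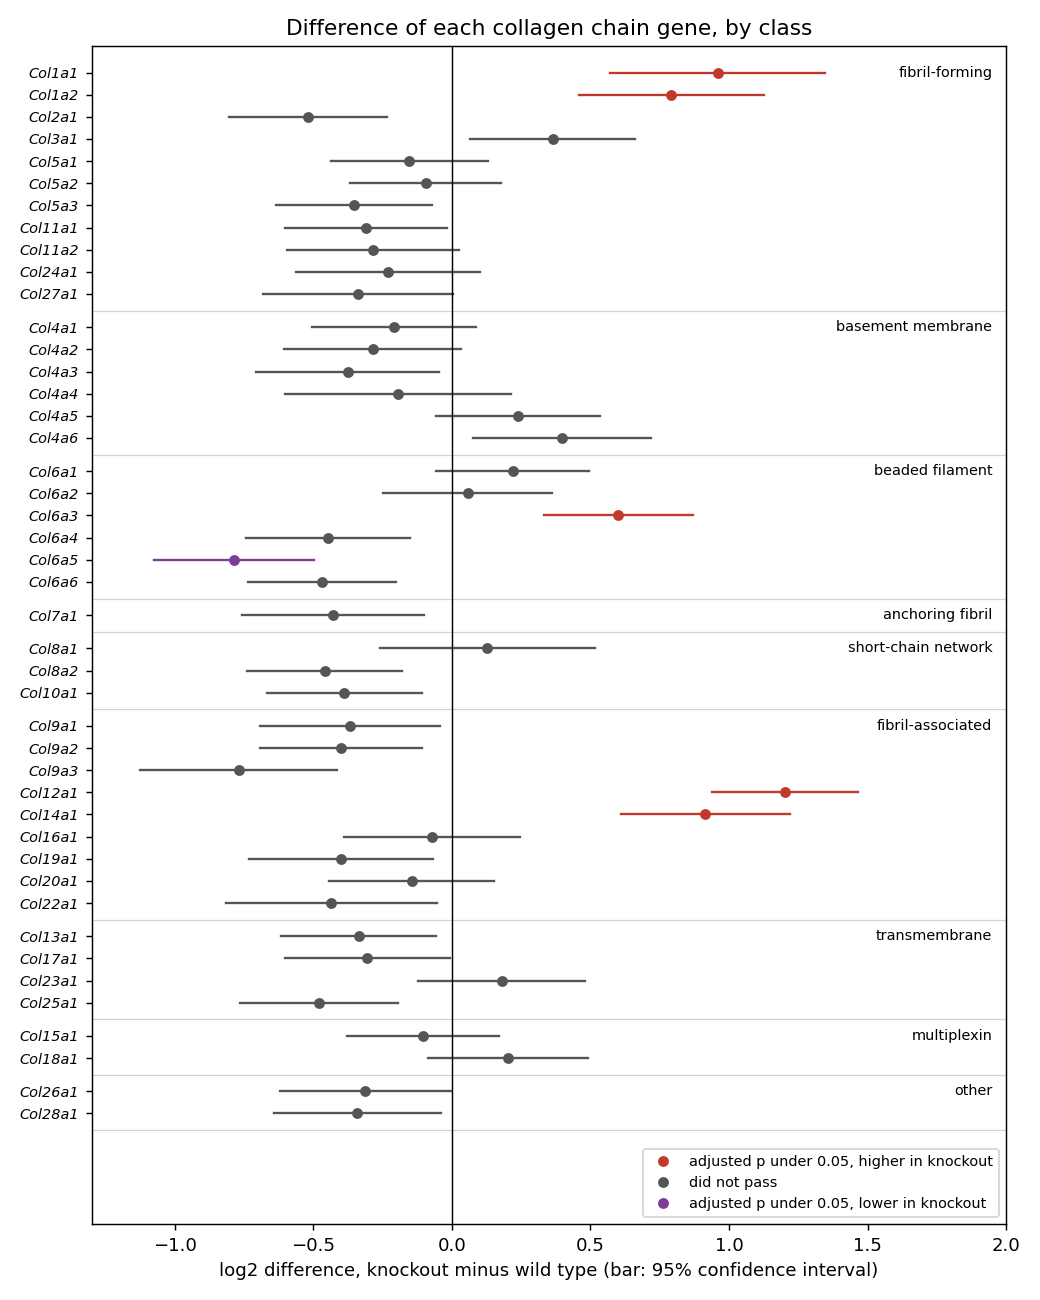
Log2 difference, knockout minus wild type, of each of the 44 collagen chain genes, grouped by class; points are limma estimates and bars their 95% confidence intervals. Red points mark the 5 genes that rose and the purple point the 1 gene that fell; most grey points lie left of 0.

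Collagen I is the most common fibril collagen of connective tissue, made of a pair of chains from Col1a1 and a single chain from Col1a2. Col1a1 (probe set 10380419) measured 10.67 and 11.01 in knockout ureter, against 9.74 and 10.03 in wild type. Col1a2 (probe set 10536220) measured 10.46 and 10.74 in knockout ureter, against 9.73 and 9.88 in wild type. For both chains every knockout mouse lay above every wild type mouse, and the gap between genotypes exceeded the gap between mice of 1 genotype. Col1a1 rose 1.94-fold (95% confidence interval 1.48 to 2.54, limma adjusted p = 0.0416) and Col1a2 rose 1.73-fold (1.37 to 2.18, adjusted p = 0.0454). The call of Col1a1 was lost with a further quantile normalization of the arrays (adjusted p = 0.0641). That of Col1a2 was lost there too (0.0643) and without knockout replicate 2 (0.0650).

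Promoters are shown for the members that passed and have an entry in the RefSeq promoter table, as the stretch upstream of the start site, 250 bases long, build GRCm38.p6. Capitals mark matches, on either strand, to the CCAAT box (CCAAT), the TATA box (TATAAA) and the GC box (GGGCGG), which bind transcription factors. No matches overlapped in the sequences shown. Among 32851 promoters of the same length, 33.8% held the first, 12.4% the second and 32.7% the third. The table held 38 promoters of 35 members, of which 13, 5 and 22 held these motifs. For Col1a2 the region was chr6:4505368-4505617, + strand. It held 2 GC boxes and a CCAAT box that began 109 bases before the start site.
Col1a2: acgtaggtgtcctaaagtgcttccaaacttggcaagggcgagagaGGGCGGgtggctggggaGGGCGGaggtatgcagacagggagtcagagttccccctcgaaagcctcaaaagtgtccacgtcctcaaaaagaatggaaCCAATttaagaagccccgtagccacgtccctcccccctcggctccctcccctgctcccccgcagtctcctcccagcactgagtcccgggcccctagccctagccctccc

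The other fibril-forming chains did not pass. Col3a1, whose product forms fibrils with collagen I in distensible tissues, measured 9.72 and 9.90 in knockout ureter, against 9.38 and 9.51 in wild type. Its difference of 0.36 had the direction of collagen I and missed the threshold (adjusted p = 0.132). Collagen V starts and limits the width of collagen I fibrils. Its chains differed by -0.15 for Col5a1, -0.09 for Col5a2 and -0.35 for Col5a3, with adjusted p of 0.443, 0.631 and 0.125. None of the 3 passed beside collagen I, and their upper confidence bounds were 1.09-fold, 1.13-fold and 0.951-fold. Col2a1, the main fibril collagen of cartilage, measured 7.54 and 7.57 in knockout ureter, against 7.99 and 8.16 in wild type (difference -0.52, adjusted p = 0.0688). Col11a1 and Col11a2, which join collagen II in cartilage fibrils, differed by -0.31 and -0.29. The minor fibril collagens Col24a1 and Col27a1 differed by -0.23 and -0.34. Of the 11 genes of this class, 3 had both knockout arrays above and 8 had both below the wild type arrays, with a class median of -0.23. Over all genes these orders were met by 28% and 32%.

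Fibril-associated collagens hold short triple helices with interruptions and attach to the surface of fibrils. Col12a1 and Col14a1 encode forms known to decorate collagen I fibrils in tendon, skin and other stretched tissues. Col12a1 (probe set 10595211) measured 10.56 on both knockout arrays, against 9.37 and 9.34 in wild type. Col14a1 (probe set 10424140) measured 9.70 and 9.84 in knockout ureter, against 8.75 and 8.95 in wild type. The mice of 1 genotype were close together for both genes and the genotypes did not overlap. Col12a1 rose 2.30-fold (95% confidence interval 1.92 to 2.76, limma adjusted p = 0.0147), the highest fold of the 44 members, and Col14a1 rose 1.89-fold (1.52 to 2.33, adjusted p = 0.0319). Both passed under 10 of the 12 alternative settings, all but those without a wild type mouse.

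The remaining 7 fibril-associated genes all had differences below 0 and did not pass. Col9a3, a chain of collagen IX, which coats the collagen II fibrils of cartilage, measured 7.66 and 7.58 in knockout ureter, against 8.20 and 8.57 in wild type. This was the largest difference below 0 among the members that did not pass (-0.77, adjusted p = 0.0521), and it passed under 5 of the 12 alternatives. Its partner chains Col9a1 and Col9a2 differed by -0.37 (adjusted p = 0.151) and -0.40 (adjusted p = 0.108). Col22a1, known from tissue junctions such as that of muscle and tendon, differed by -0.43, Col19a1 by -0.40, Col20a1 by -0.15 and Col16a1 by -0.07. Both knockout values of Col19a1 lay below background. Of 8 other cartilage markers, 4 were below background in both genotypes, namely Acan, Matn1, Matn3 and Hapln1. Sox9 and Comp were above it on all 4 arrays, and Cnmd and Snorc on the wild type arrays only. Sox9 measured 8.29 and 8.28 in knockout ureter, against 8.57 and 8.54 in wild type. In limma 0 of the 8 markers passed (4 were lower before adjustment). The mean of the 8 markers was 6.30 and 6.37 in knockout and 6.56 and 6.70 in wild type. Whether the collagen II, IX and XI probe sets read RNA of these genes in ureter was not tested.

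**Figure D2:**
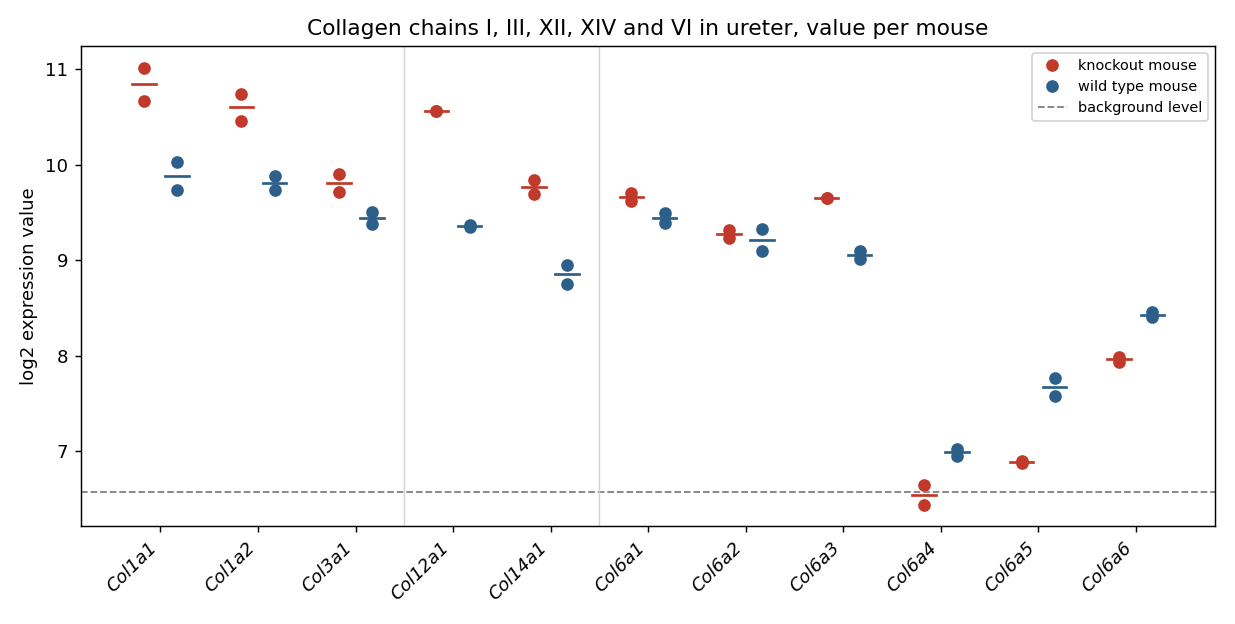
Log2 expression value in each mouse for 11 collagen chain genes of types I, III, XII, XIV and VI; each point is 1 mouse, short lines are genotype means (n = 2 each) and the dashed line is the background level of 6.58. Knockout points of Col1a1, Col1a2, Col3a1, Col12a1, Col14a1, Col6a1 and Col6a3 sit above both wild type points. Those of Col6a4, Col6a5 and Col6a6 sit below, and those of Col6a2 overlap. Col3a1, Col6a1, Col6a2, Col6a4 and Col6a6 did not pass.

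Collagen VI forms beaded filaments around cells and between fibrils. Its standard molecule joins the chains of Col6a1, Col6a2 and Col6a3, and the later found chains of Col6a4, Col6a5 and Col6a6 resemble the third and can stand in for it. Col6a3 (probe set 10356520) measured 9.65 on both knockout arrays, against 9.01 and 9.09 in wild type. Col6a5 (probe set 10596409) measured 6.88 and 6.90 in knockout ureter, against 7.58 and 7.77 in wild type. The third chain was thus higher and the fifth lower, each with no overlap between genotypes. Col6a3 rose 1.52-fold (95% confidence interval 1.26 to 1.83, limma adjusted p = 0.0499), and Col6a5 fell to 0.580-fold of wild type (0.475 to 0.709, adjusted p = 0.0364). The call of Col6a3 was at the threshold and was lost under 6 of 12 alternatives, among them the further quantile normalization (adjusted p = 0.0719), centred arrays (0.0521), array weights (0.0515) and the fit without knockout replicate 2 (0.0809). A second probe set of Col6a5 read 6.86 and 6.44 in knockout ureter, against 7.13 and 8.02 in wild type, lower again but with a wider spread. With the mean of both probe sets the call was lost (limma adjusted p = 0.0609). The knockout values of Col6a5 were near the background level of 6.58, and the 6.44 was below it.

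The partner chains stood between these. Col6a1 measured 9.70 and 9.62 in knockout ureter, against 9.38 and 9.49 in wild type (difference 0.22, adjusted p = 0.273). Col6a2 measured 9.31 and 9.23 in knockout ureter, against 9.10 and 9.33 in wild type (difference 0.06, adjusted p = 0.809). Neither passed, and the genotypes overlapped for Col6a2. Col6a4 measured 6.44 and 6.65 in knockout ureter, against 7.03 and 6.95 in wild type (difference -0.45, adjusted p = 0.0924). Col6a6 measured 7.99 and 7.93 in knockout ureter, against 8.40 and 8.46 in wild type (difference -0.47, adjusted p = 0.0727). These 2 did not pass. Each had both knockout arrays below both wild type arrays, as Col6a5 did, an order met by 32% of all genes. In the RefSeq gene table of GRCm38.p6, Col6a4, Col6a5 and Col6a6 are neighbours on the same strand of chromosome 9, with no other protein-coding gene between them, and Col6a1 and Col6a2 are neighbours on chromosome 10. The promoters of the chain that rose and the chain that fell are shown for comparison, that of Col6a3 at chr1:90843972-90844221 and that of Col6a5 at chr9:105960644-105960893, both on the - strand. In these windows Col6a5 held a GC box, which began 57 bases before the start site, and Col6a3 held none of the 3 motifs.
Col6a3: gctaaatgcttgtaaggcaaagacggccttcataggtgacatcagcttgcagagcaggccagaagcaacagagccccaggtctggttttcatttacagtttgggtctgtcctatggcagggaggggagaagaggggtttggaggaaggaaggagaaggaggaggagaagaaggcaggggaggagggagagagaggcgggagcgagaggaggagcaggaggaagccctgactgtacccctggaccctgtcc
Col6a5: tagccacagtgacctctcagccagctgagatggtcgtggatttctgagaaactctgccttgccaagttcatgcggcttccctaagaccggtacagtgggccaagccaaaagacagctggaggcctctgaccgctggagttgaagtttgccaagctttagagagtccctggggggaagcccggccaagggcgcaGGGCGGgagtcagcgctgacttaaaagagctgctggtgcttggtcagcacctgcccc

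Collagen IV is the network collagen of basement membranes. In limma 0 of its 6 genes passed, and before adjustment, at p under 0.05, 1 was higher and 1 lower. Over all genes 12.7% were higher and 13.8% lower. Col4a1 and Col4a2, whose chains occur together in every basement membrane, are head to head neighbours. Col4a1 measured 9.34 and 9.12 in knockout ureter, against 9.45 and 9.43 in wild type, and Col4a2 measured 9.18 and 8.93 in knockout ureter, against 9.41 and 9.28 in wild type. Both were lower on both knockout arrays, by -0.21 and -0.29, and did not pass (limma adjusted p = 0.320 and 0.225). That order was met by 32% of all genes. Col4a5 and Col4a6, also head to head, encode chains of a network described in the basement membranes of smooth muscle. Col4a6, with the smallest p of the class, measured 7.54 and 7.64 in knockout ureter, against 7.05 and 7.33 in wild type, and Col4a5 averaged 7.98 ± 0.03 in knockout ureter, against 7.74 ± 0.15 in wild type (SD, n = 2 each). This pair was higher, by 0.40 and 0.24 (adjusted p = 0.128 and 0.264). Col4a3 and Col4a4, best known from the filter of the kidney glomerulus, differed by -0.38 and -0.19 and did not pass. They read 6.98 and 7.27 on the array with bright kidney markers, knockout replicate 1, and 7.03 and 7.02 on that of knockout replicate 2.

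Collagens at the junction of epithelium and stroma did not pass. Col7a1, which encodes the anchoring fibrils below stratified epithelia, measured 7.55 and 7.66 in knockout ureter, against 7.89 and 8.18 in wild type (difference -0.43, adjusted p = 0.116). Col17a1, a transmembrane collagen of the hemidesmosomes of basal epithelial cells, measured 7.06 and 7.20 in knockout ureter, against 7.35 and 7.52 in wild type (difference -0.30, adjusted p = 0.183). Both were lower on both knockout arrays, an order met by 32% of all genes. Over the same arrays the 8 urothelial markers were all higher on both knockout arrays, with differences from 0.38 to 0.83. That of the basal epithelial factor Trp63 passed (limma adjusted p = 0.0486) and the other 7 did not. Over all genes 28% had both knockout arrays higher, as had 2338 of the 5735 genes with a mean value above 9. Whether the amount of urothelium bears on these 2 collagens was not tested.

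The other transmembrane, short-chain and multiplexin collagens held 0 genes that passed in limma. Col25a1, a transmembrane collagen of neurons, had the smallest p of its class, with 6.66 and 6.83 in knockout ureter, against 7.20 and 7.25 in wild type (difference -0.48, adjusted p = 0.0767). Col13a1, which acts at the junction of nerve and muscle, differed by -0.34 and Col23a1 by 0.18. Col8a2, of the short-chain collagen VIII found in vessel walls, measured 6.93 and 6.88 in knockout ureter, against 7.30 and 7.43 in wild type (difference -0.46, adjusted p = 0.0781). Its partner Col8a1 differed by 0.13 with overlapping genotypes. Col10a1, a collagen of growing cartilage, was below background on both knockout arrays and above it on 1 wild type array. Col18a1, of the basement membrane zone and the source of the fragment endostatin, measured 8.999 and 9.002 in knockout ureter, against 8.71 and 8.89 in wild type (difference 0.20, adjusted p = 0.328), and the related Col15a1 differed by -0.11. Col28a1, known from peripheral nerve, measured 6.54 and 6.68 in knockout ureter, against 6.86 and 7.05 in wild type (difference -0.34, adjusted p = 0.151), and Col26a1 differed by -0.31. Before adjustment, at p under 0.05, 3 of 4 transmembrane genes (with Col17a1), 2 of 3 short-chain genes, 0 of 2 multiplexins and both Col26a1 and Col28a1 were lower, and 0 were higher. Over all genes 13.8% were lower and 12.7% higher. Among the 4482 genes with a mean value from background to 8, 928 were lower and 555 higher.

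The direction of the members went with the brightness of their probe sets. A probe set's value is not a transcript level that can be set against another gene's, so this describes the arrays. Of the 11 members with a mean value above 9, 5 rose and 8 had a difference above 0, with a median of 0.36. Over all 5735 genes in that range 3.07% passed and the median was 0.07. Of the 33 members up to 9, 28 had a difference below 0, with a median of -0.34, and Col6a5 was the 1 that passed, or 3.03% of them. Over all 13561 genes up to 9, 2.09% passed, 58.8% had a difference below 0 and the median was -0.06. That range pools unlike bands. Below background, where 1 member lay, 74.1% of 5489 genes had a difference below 0. From background to 8, 22 of 24 members and 59.7% of 4482 genes did (medians -0.34 and -0.08). From 8 to 9, 5 of 8 members and 34.2% of 3590 genes did (medians -0.25 and 0.10). Across the 44 members the difference and the mean value had a Pearson correlation of 0.74 and a Spearman correlation of 0.66, and across all 19296 genes these were 0.20 and 0.27. All points share the same 4 arrays, and genes are not independent replicates. With the further quantile normalization, the median over the 44 members was -0.24 and 32 had a difference below 0. The part that the lower reading of dim genes on the knockout arrays has in the many small differences below 0 was not tested.

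**Figure D3:**
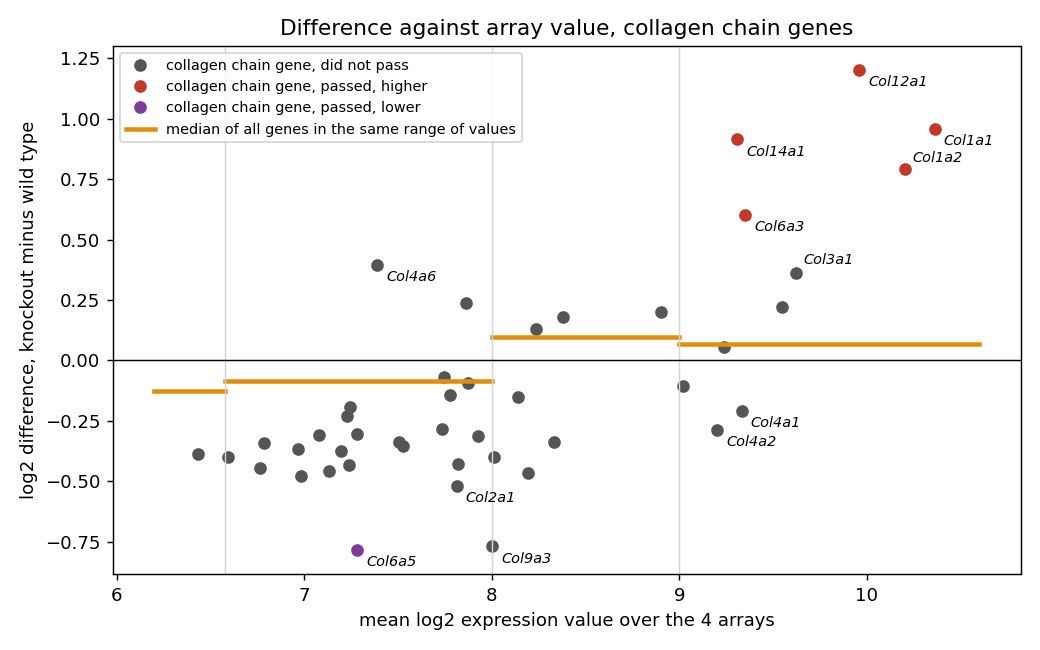
Log2 difference, knockout minus wild type, of the 44 collagen chain genes against their mean log2 value over the 4 arrays. Orange lines give the median difference of all genes in 4 ranges of mean value (below 6.58, to 8, to 9 and above 9), with the outer ranges drawn only as far as the plotted genes; the 5 genes that rose all lie above 9.

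Collagen chains need a set of enzymes and chaperones before they form fibers, and cells bind and take up collagen through receptors. Of 49 listed genes of this kind 45 were tested, of which 3 rose and 0 fell, or 6.67% against 1.9% of all genes that passed as higher. The median difference was 0.22, and 26 had both knockout arrays above and 5 both below the wild type arrays. Over all genes these orders were met by 28% and 32%, and the median was -0.02. Among the 5735 genes with a mean value above 9, 2338 had both knockout arrays above and 1250 both below, with a median of 0.07. Not all handling genes lie in that range, and Itga11 and Ctsk had mean values of 8.09 and 7.55. Among the 3590 genes from 8 to 9 these orders were met by 1542 and 639. Among the 4482 from background to 8 they were met by 1049 and 1826. P3h2, which hydroxylates proline in collagen chains, measured 10.98 and 10.91 in knockout ureter, against 9.996 and 10.05 in wild type, and rose 1.89-fold (limma adjusted p = 0.0243). Itga11, the collagen-binding integrin chain of fibroblasts, measured 8.58 and 8.92 in knockout ureter, against 7.24 and 7.61 in wild type, and rose 2.50-fold (adjusted p = 0.0278). Ctsk, a protease that can cut the collagen triple helix, measured 7.81 and 8.13 in knockout ureter, against 7.12 and 7.13 in wild type, and rose 1.79-fold (adjusted p = 0.0399). All 3 genes were higher in both knockout mice than in either wild type mouse.

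By step, the chain-modifying enzymes had 1 rise in 15 genes and the receptors with uptake genes 2 in 10, while limma passed 0 of 8 genes for folding and export, 0 of 8 for propeptide cleavage and 0 of 4 for crosslinking (before adjustment 4, 2 and 0 were higher and 0 lower). The genes of smallest p in these last steps were Fkbp14, a folding enzyme of the endoplasmic reticulum, Bmp1, the protease that removes the carboxyl propeptide of fibril collagens, and Loxl3, a crosslinking enzyme. They differed by 0.60 (adjusted p = 0.0723), 0.59 (adjusted p = 0.0767) and 0.30 (adjusted p = 0.221). Before adjustment, 12.7% of all genes were higher and 13.8% lower. Among genes outside the rule for naming, chosen after their values were seen, P4ha1, a prolyl 4-hydroxylase subunit, measured 10.45 and 9.37 in knockout ureter, against 9.30 and 9.14 in wild type. Its high value fell on knockout replicate 1, the array with bright kidney markers (difference 0.69, adjusted p = 0.212). With that mouse left out, 5 of the 44 collagen chain genes passed as higher and 2 as lower, and over all genes 5.78% passed as higher and 3.26% as lower.

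**Figure D4:**
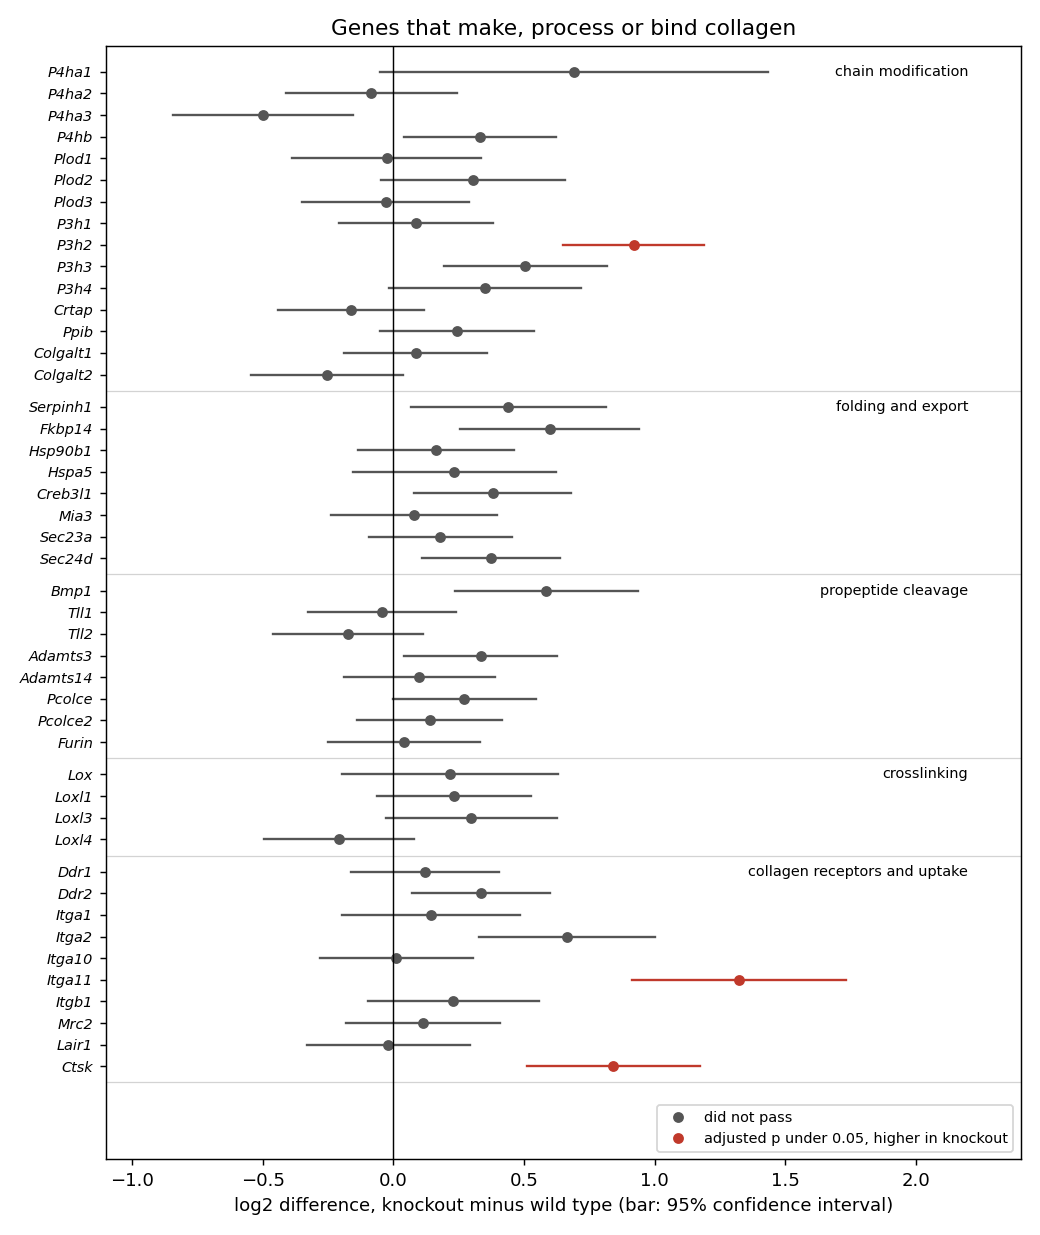
Log2 difference, knockout minus wild type, of the 45 tested genes that modify, fold, cleave, crosslink or bind collagen, by step; points are limma estimates and bars their 95% confidence intervals. P3h2, Itga11 and Ctsk, in red, passed the threshold, and most other points lie right of 0.

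Markers of cells that make collagen were read on the same arrays. Of 8 fibroblast markers 7 had a difference above 0, with list means of 10.83 and 10.92 in knockout and 10.45 and 10.64 in wild type and a median difference of 0.39. In limma 0 of them passed, 4 were higher before adjustment, and all were above background. Of 7 adipocyte markers all had a difference below 0 and 0 passed in limma (5 were lower before adjustment), with list means of 12.52 and 12.03 in knockout and 12.88 and 12.75 in wild type. The 8 endothelial markers averaged 10.28 and 10.09 in knockout and 10.27 and 10.38 in wild type. Of these 6 had a difference below 0 and 2 above, and 0 passed in limma (2 were lower before adjustment). Of 8 smooth muscle markers 6 had a difference above 0 and 2 below, with a median of 0.27. In limma 0 of these passed (4 were higher before adjustment). Over all genes 12.7% were higher and 13.8% lower before adjustment. In whole ureter a change in the number of such cells and a change in RNA per cell cannot be told apart, and their part in the collagen differences was not tested.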

How the data were processed

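Ureter RNA of 4 mice was read on 1 Affymetrix whole-transcript array per mouse from 500 ng of total RNA, per the labels' protocols. The deposited values are log2 expression values per probe set; the submitters' processing notes name RMA with R 2.15.0 and limma 3.12.1. RMA subtracts background and makes array distributions alike, which reduces shared changes. For the probe sets, a genome build is not given in the sources. Of 23309 probe sets, 20728 had 1 symbol in the platform annotation, 1174 several and 1407 none. The brightest probe set was kept for each of 19296 genes; collagen chains had 46 probe sets for 44 genes. Groups came from the sample titles. The genotypes were compared with limma 3.58.1 and R 4.3.3 (functions lmFit and eBayes, no trend, not robust), fitted on all genes with Benjamini-Hochberg adjustment over them and a threshold of 0.05. SD and confidence intervals rest on 2 mice per genotype, and no counting depth exists for arrays. The fit was tested on simulated data. The members, classes, handling genes and marker lists were chosen with earlier results of these data known. Named in full were members that passed, the smallest p of each class, partner chains of members that passed, the 4 brightest members and, per handling step, genes that passed or had the smallest p. Col2a1, Col9a3, Col4a1, Col4a2, Col4a5 and Col17a1 are outside this rule. Their values per mouse or genotype were chosen for print after they were seen, as were those of Col4a3, Col4a4, P4ha1 and Sox9. There were 12 alternatives: leaving out each mouse, array weights, robust eBayes, an intensity trend, the mean of probe sets, centred arrays, a second quantile normalization, removal of dim genes and the replicate number as a block. Promoters came from the RefSeq table of GRCm38.p6.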

Additional observations from a re-analysis of the deposited data

How the results depend on the processing

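Over all genes, 1922 passed with the replicate number as a block, 204 with a further quantile normalization and 902 with robust eBayes, against 459 as reported. The count of collagen chain genes that rose was 2 with the further quantile normalization. That of genes that fell was 4 with the replicate block, 2 with the filter on dim genes and with robust eBayes, 3 with centred arrays and 0 with the mean of probe sets (limma, 20 lower at an unadjusted p under 0.05). Collagen handling genes that passed numbered 7 with the replicate block. The median difference of the collagen chain genes was -0.36 with centred arrays. With 1 mouse left out at a time, 0 to 1744 genes passed over all, 0 to 5 collagen chain genes as higher, 0 to 2 as lower and 0 to 6 handling genes, and the median lay between -0.39 and -0.19. The counts of 0 came without wild type replicate 1 (lowest adjusted p over all genes 0.183) and without wild type replicate 2 (0.153). A lone mouse is assumed there to vary as the other genotype does. The 1744 came without knockout replicate 1. Without knockout replicate 2, 3 collagen chain genes passed as higher. The 6 collagen chain genes that passed kept their direction under all 12 alternatives. Col9a3 passed as lower under 5 alternatives, Col2a1 under 2 and Col25a1 under 1. Same-numbered mice did not deviate together (correlation -0.03 over genes), so the numbers were not treated as pairs. Signal over background limits Col10a1, Col19a1, Col6a4 and Col28a1, which were below background on at least 1 knockout array. It also limits Col6a5, the member that fell, with knockout values of 6.88 and 6.90 against a background of 6.58. Its second probe set read 6.44 in knockout replicate 2, below background.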
